A study of Mus musculus with 20 samples.

Results

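The insulin-like growth factor (IGF) axis was examined in sorted mouse dermal fibroblasts through 9 genes of the pathway: the binding proteins Igfbp2, Igfbp3, Igfbp4, Igfbp5, Igfbp6 and Igfbp7, the ligand Igf1 and the receptors Igf1r and Igf2r. A gene was represented by the probe set that names it and no other gene, and where there were several, by the one with the highest mean over all 20 arrays. By this rule 7 of the 9 genes were measured, out of 17097 genes in all. Igfbp7 and Igf2r were not analysed here: no probe set used here names Igfbp7, and the probe set that names Igf2r also names Airn.

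IGF1 is a secreted growth factor that acts through the receptor tyrosine kinase IGF1R, and much of it in tissue fluid is held by IGF binding proteins, which set how much ligand reaches the receptor. Proteases such as PAPP-A cut particular binding proteins and free the ligand. In skin, dermal fibroblasts are a local source of IGF1 and of several binding proteins, and circulating IGF1 is known to fall when calories are restricted.

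The fibroblasts came from the skin of female mice after removal of the subdermis, and were sorted as positive for Pdgfra and CD34 and negative for CD45, CD117, CD24, CD31 and EpCam. RNA from 10000 cells was amplified for 20 cycles and 8 µg of cDNA was labelled for the array. The 4 groups held 5 biological replicates each. Young ND mice, 4 weeks old, were fed a normal diet (ND) for 4 weeks, and the labels do not say clearly whether 4 weeks was their age at the start or at collection. The old mice were 9 months of age at the start and 18 months at collection. Old ND mice had free access to the normal diet for those 9 months. Old CR mice were restricted by 30% (caloric restriction, CR) for the last 7 months after 2 months on the normal diet. For Old CR-ND mice the order was turned, with restriction for 7 months before a return to the normal diet for 2 months. Old CR mice were therefore under restriction at collection and Old CR-ND mice were not. They are different mice, restricted over different ages. The timing of restriction and the return to the normal diet therefore cannot be told apart. Strain is not stated in the labels, and each array holds RNA of many cells, so a change in RNA per cell and a change in the mix of cells cannot be told apart.

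The deposited values are log2 intensities between 2.71 and 13.46, with array medians between 5.27 and 5.34, and over genes the median level was 5.88. The array numbers in the sample titles form 2 runs, of 13 and 7 arrays. Every group has arrays in both, replicates 4 and 5 falling in the second run, except that Old CR has only replicate 5 there, and 2934 genes differed between the runs at an adjusted p under 0.05. Group means of the fibroblast marker Dcn reached 13.28, and those of the sorting marker Pdgfra lay between 5.71 and 6.20. Of the excluded sorting markers, Epcam, Kit and the CD31 gene Pecam1 had group means of 5.06 to 5.11, 3.34 to 3.39 and 5.50 to 5.70. Epcam was the lowest of 8 keratinocyte markers in every group, while Krt5, another of them, had group means of 8.69 to 9.36. All tests below are limma's moderated tests over the 20 arrays with Benjamini-Hochberg adjustment over the 17097 genes, and a gene was called at an adjusted p under 0.05. Errors written with ± are SD for levels (n = 5) and SE for differences. A probe set's level is compared between groups only, because probe sets differ in brightness.

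Igfbp3 and Igfbp4 moved most among the members, and the 250 bases before their RefSeq start sites (GRCm38.p6) are shown. Which start sites these fibroblasts use was not measured. The Igfbp3 window lies at chr11:7213924-7214173 on the minus strand and the Igfbp4 window at chr11:99040994-99041243 on the plus strand. They are printed 5′ to 3′, ending at the base before the start site, with a TATA-type match in capitals.
Igfbp3: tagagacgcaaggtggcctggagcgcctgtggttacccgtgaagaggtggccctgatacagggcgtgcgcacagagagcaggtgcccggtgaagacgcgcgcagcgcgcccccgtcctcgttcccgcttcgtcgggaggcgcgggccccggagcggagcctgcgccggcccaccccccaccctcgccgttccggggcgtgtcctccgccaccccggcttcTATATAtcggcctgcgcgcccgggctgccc
Igfbp4: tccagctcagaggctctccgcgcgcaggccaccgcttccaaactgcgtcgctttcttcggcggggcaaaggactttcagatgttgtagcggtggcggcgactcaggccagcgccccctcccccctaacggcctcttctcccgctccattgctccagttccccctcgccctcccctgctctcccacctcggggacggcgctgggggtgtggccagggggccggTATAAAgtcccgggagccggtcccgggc
The Igfbp3 window holds TATATA from -30 to -25 and is 73.2% G and C. The Igfbp4 window holds TATAAA from -28 to -23 and is 69.2% G and C, where the median over all 32536 such windows is 52.4%. TATATA was found in 5.01% and TATAAA in 12.3% of all windows, both strands being searched, and the letters of these motifs can overlap one another. The GC box GGGCGG, in 33% of all windows, the E-box CACGTG, in 6.04%, the forkhead motif GTAAACA, in 3.17%, the CRE TGACGTCA, in 1.56%, the STAT motif TTCNNNGAA, in 7.04%, and the glucocorticoid motif AGAACA, in 16%, were not found in either window. These matches describe the letters of the windows only.

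Igfbp3 was high under current restriction and lower in the other 3 groups. IGFBP3 is the main carrier of IGF1 in blood, and many cell types secrete it. In Young ND mice its log2 levels were 8.03, 6.62, 7.37, 6.62 and 7.35. In Old ND mice they were 7.89, 6.09, 6.20, 7.01 and 7.25. Old CR mice gave 9.72, 9.86, 9.57, 8.55 and 8.65, so that each of the 5 lay above every mouse of the Young ND and Old ND groups. Old CR-ND mice gave 5.94, 6.93, 8.62, 6.09 and 6.27, where replicate 3 stood well above the other 4 and just above the lowest Old CR mouse.

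The Igfbp3 means were 7.20 ± 0.59 in Young ND, 6.89 ± 0.75 in Old ND, 9.27 ± 0.62 in Old CR and 6.77 ± 1.10 in Old CR-ND. Igfbp3 rose by 2.38 ± 0.45 on the log2 scale in Old CR against Old ND (5.21-fold, 95% interval 1.45 to 3.32, limma adjusted p = 0.00758), which ranked 2 among the rises of all genes in that comparison. Against Young ND the rise was 2.07 (4.20-fold, 1.14 to 3.01, adjusted p = 0.00343). After the return to the normal diet, in Old CR-ND, Igfbp3 was 2.50 ± 0.45 lower than in Old CR (5.66-fold, adjusted p = 0.0142), which ranked 2 among the falls. Old CR-ND and Old ND differed by -0.12 (interval -1.05 to 0.82, adjusted p = 0.998), and Old ND and Young ND by -0.31 (-1.25 to 0.63, adjusted p = 0.757), and these wide intervals do not show that the levels were equal.

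The rise of Igfbp3 in Old CR over Old ND stayed called with any single array left out. It was 2.70 in the first run taken alone (adjusted p = 0.0197). The second run alone, with its 1 Old CR array, gave 1.52 (adjusted p = 0.214). The difference between Old CR-ND and Old CR was less firm. It lost its call without Old CR replicate 2 (-2.35, adjusted p = 0.0548), Old CR replicate 3 (-2.43, adjusted p = 0.0612), Old CR-ND replicate 4 (-2.33, adjusted p = 0.0517) or Old CR-ND replicate 5 (-2.38, adjusted p = 0.0586), while without the high Old CR-ND replicate 3 it was -2.96 (adjusted p = 0.000947). The arrays of the first run alone gave -2.26 (adjusted p = 0.155) and those of the second, again with 1 Old CR array, -2.47 (adjusted p = 0.029).

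**Figure D1:**
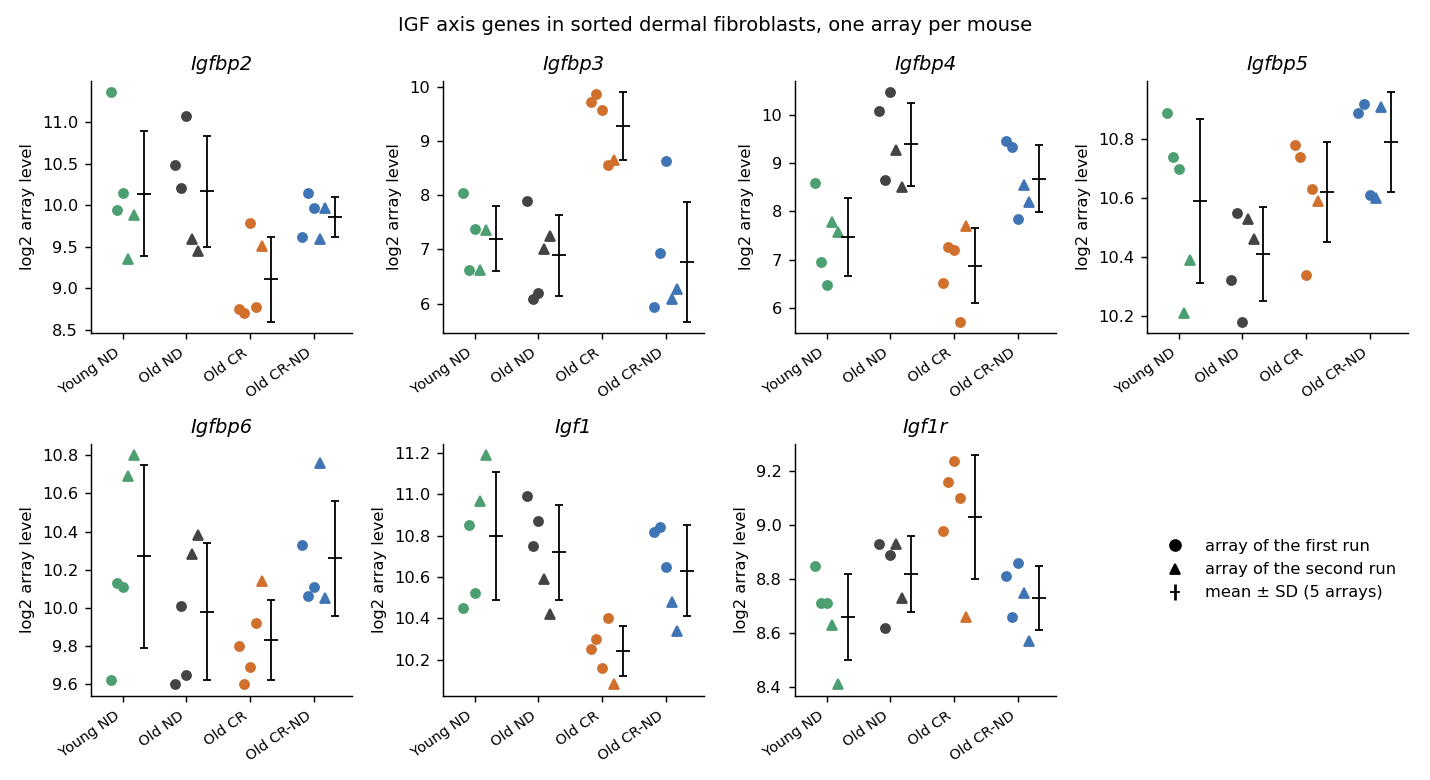
Deposited log2 level of each of the 7 measured genes in every mouse, by group; circles are arrays of the first run, triangles arrays of the second, and bars the mean ± SD (n = 5). Igfbp3 sits at 8.55 to 9.86 in Old CR against 6.09 to 7.89 in Old ND, and Igfbp4 at 5.72 to 7.69 in Old CR against 8.50 to 10.46 in Old ND.

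Igfbp4 went the other way. IGFBP4 is a carrier that mostly inhibits IGF action in tissue and is the best known substrate of PAPP-A. Young ND mice had log2 levels of 8.58, 6.96, 6.47, 7.79 and 7.57, and Old ND mice 10.07, 8.64, 10.46, 9.27 and 8.50. Old CR mice had 6.51, 7.26, 7.20, 5.72 and 7.69. Old CR-ND mice had 9.45, 9.34, 7.85, 8.55 and 8.20. Every Old CR mouse was below every Old ND and every Old CR-ND mouse, while Old ND and Young ND touched at a single pair of arrays, 8.50 and 8.58.

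Igfbp4 means were 7.47 ± 0.81 in Young ND, 9.39 ± 0.86 in Old ND, 6.88 ± 0.77 in Old CR, and 8.68 ± 0.70 in Old CR-ND. With age on the normal diet Igfbp4 rose by 1.91 ± 0.45 (3.77-fold, interval 0.99 to 2.84, limma adjusted p = 0.0066), which ranked 10 among the rises. Under restriction, in Old CR against Old ND, it fell by 2.51 ± 0.45 (5.70-fold, -3.44 to -1.58, adjusted p = 0.00489), the largest fall of the 17097 genes in that comparison. These comparisons share the Old ND mice, so the rise and the fall are not independent of each other. Set against Young ND, without Old ND, the Old CR level differed by -0.60 (-1.53 to 0.33, adjusted p = 0.465).

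After the return to the normal diet Igfbp4 was 1.80 higher than in Old CR (0.87 to 2.73). This was the largest positive difference of all genes there, and the groups did not overlap, yet it did not pass (adjusted p = 0.0889); with array weights it did (1.93, adjusted p = 0.0266). Old CR-ND differed from Old ND by -0.71 (-1.64 to 0.22, adjusted p = 0.986) and from Young ND by 1.20 (0.28 to 2.13, adjusted p = 0.121). The calls of Igfbp4 in Old ND against Young ND and in Old CR against Old ND held with any single array left out. The age difference was 2.39 in the first run taken alone (adjusted p = 0.0259) and 1.20 in the second (adjusted p = 0.0106). For restriction the first run gave -3.05 (adjusted p = 0.00975) and the second, with its 1 Old CR array, -1.19 (adjusted p = 0.539).

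Igfbp4 has 6 probe sets, which share a target and are not replicates, and each was tested as a row of its own among 28898. In Old ND against Young ND all 6 were higher, by 1.02 to 1.91, and 4 were called, where 10.7% of all probe sets were. All 6 were lower in Old CR than in Old ND, by -2.51 to -1.23, and 4 were called, where 2.13% of all probe sets were; the uncalled ones were at -1.51 (adjusted p = 0.0869) and -1.23 (adjusted p = 0.18). All 6 were higher in Old CR-ND than in Old CR, by 0.66 to 1.80, and none was called, where 0.197% of all probe sets were. Old ND mice were the most spread on the less bright probe sets, with an SD of up to 1.20 against 0.24 or less in Old CR on 3 of them.

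**Figure D2:**
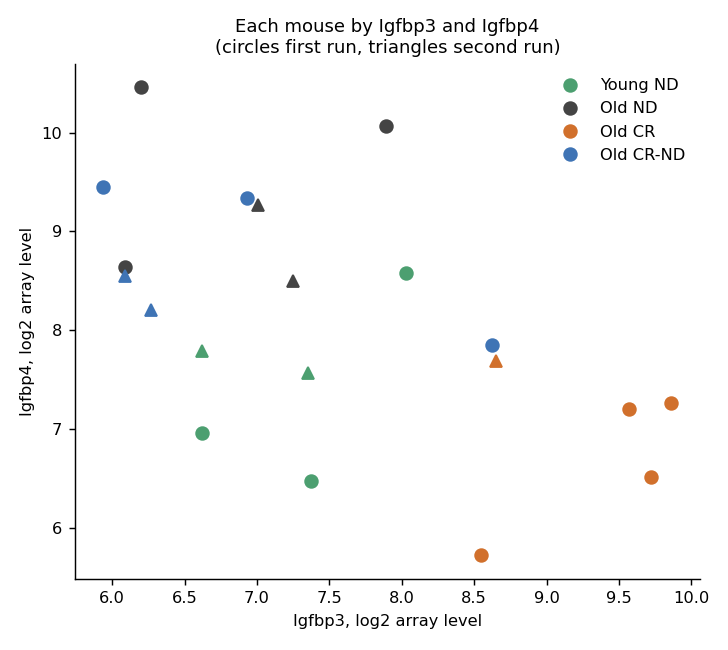
Log2 level of Igfbp3 (x axis) against Igfbp4 (y axis), 1 point per mouse, coloured by group. The 5 Old CR mice lie apart at high Igfbp3 and low Igfbp4, Young ND mice are mostly low on both, and Old ND and Old CR-ND mice share the upper left, except Old CR-ND replicate 3 at 8.62 and 7.85.

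The opposite movement of these carriers was seen between the groups, where they were picked for moving most, and was not seen between mice of a group. Over the 20 arrays the Pearson correlation of Igfbp3 with Igfbp4 was -0.54, and with each group's mean subtracted it was -0.02. These correlations are descriptions, since the arrays share groups and runs. With 5 mice in a group, the value of -0.02 does not show that opposite movement within groups was absent.

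Markers of other cell types were read beside these results. The summed level of 8 fibroblast markers had a log2 mean of 14.92 in Old ND and of 14.92 in Old CR, and 0 of the 8 were called in that comparison by limma. The summed level of 6 of 6 tendon and fascia markers was 9.50 to 11.63 in Old ND, 9.12 to 9.41 in Old CR and 9.07 to 10.92 in Old CR-ND; Tnmd, the tenomodulin gene, fell by 1.95 ± 0.49 in Old CR against Old ND (adjusted p = 0.0373), and Comp, another marker of that list, was at 3.93 to 4.04 in every group. The 6 dermal papilla markers summed to 8.96 to 11.16 in Old ND and 8.81 to 9.65 in Old CR, with Sox2 at 2.90 to 2.97. Keratinocyte markers, 8 of 8, summed to 9.10 to 12.03 in Old ND, 9.87 to 10.90 in Old CR and 10.03 to 11.38 in Old CR-ND. In Old CR-ND against Old CR their median difference was 0.47 and 0 of the 8 were called. Endothelial markers, 7 of 7, summed to 7.61 to 8.37 in Old ND and 8.13 to 8.37 in Old CR. Macrophage and dendritic markers, 7 of 7, summed to 9.02 to 9.42 in Old ND and 8.82 to 9.25 in Old CR, with Adgre1 at 3.59 to 3.79. Of these, Cd74 fell by 0.61 ± 0.15 in Old CR against Old ND (limma adjusted p = 0.0276). In that comparison 4 of the 7 had an unadjusted p under 0.05, against 14.5% of all genes. Those 4 differed in direction: Cd74, Fcer1g and Adgre1 were lower, at -0.61, -0.22 and -0.20, and Csf1r was higher, at 0.23.

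Markers also moved with age on the normal diet. The fibroblast sum was 15.10 to 15.15 in Young ND and 14.83 to 14.96 in Old ND. By limma 3 of 8 markers fell, where 10.9% of all genes were called. They were Col1a1 (-0.48, adjusted p = 0.000264), Col3a1 (-0.27, adjusted p = 0.00808) and the sorting marker Cd34 (-0.30, adjusted p = 0.0303). The sorting marker Pdgfra was not lower, with means of 5.71 in Young ND and 6.20 in Old ND, nor was Dcn, at 13.19 and 13.21. Macrophage and dendritic markers summed to 8.88 to 9.18 in Young ND; Csf1r fell by 1.20 ± 0.10 (adjusted p = 1.41e-07) and Cd74 rose by 0.48 ± 0.15 (adjusted p = 0.0372), so that Cd74, like Igfbp4, was called up with age and down under restriction. The endothelial marker Tek rose by 1.02 ± 0.29 (adjusted p = 0.0239), the tendon marker Mkx by 0.77 ± 0.21 (adjusted p = 0.0196) and the melanocyte marker Mitf by 0.63 ± 0.20 (adjusted p = 0.0489). Each was the only call in its list, of 7, 6 and 6 markers, with median differences of 0.05, -0.09 and -0.03. The endothelial sum had a log2 mean of 8.18 in Young ND and 7.96 in Old ND. For tendon and fascia these means were 10.72 and 10.35, and for melanocyte markers 8.21 and 8.59. The pericyte and smooth muscle marker Des fell by 0.35 ± 0.11 (limma adjusted p = 0.0407), the only call among its 5 measured markers. The part of these cells in the changes of Igfbp3 and Igfbp4 was not tested.

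Igfbp2 was lowest under restriction, with a wide spread. IGFBP2 is an abundant carrier that also binds integrins. Its log2 levels were 11.36, 9.94, 10.15, 9.35 and 9.88 in Young ND, and 10.49, 10.21, 11.08, 9.60 and 9.45 in Old ND. Old CR gave 8.75, 8.70, 9.79, 8.78 and 9.51, where replicate 3 overlaps all the other groups and replicate 5 those of Young ND and Old ND. Old CR-ND gave the narrow range of 9.62, 10.15, 9.97, 9.59 and 9.97.

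Igfbp2 fell by 1.03 ± 0.33 in Old CR against Young ND (2.04-fold, limma adjusted p = 0.0413), and the difference of -1.06 ± 0.33 against Old ND did not pass (interval -1.74 to -0.38, adjusted p = 0.0952). The call against Young ND rested on single arrays: it was lost without Old CR replicate 1, 2 or 4 and without Young ND replicate 1, 2, 3 or 5, with adjusted p from 0.0537 to 0.119, and without Young ND replicate 1, the highest mouse, the difference was -0.72. It also ended with the trend and robust options of eBayes (adjusted p = 0.0536), with only the 2 groups compared (adjusted p = 0.0649) and in the second run, with its 1 Old CR array (-0.11, adjusted p = 0.942), while the first run gave -1.48 (adjusted p = 0.0133). With the run as a block, the difference between Old CR and Old ND was -1.15 and passed (adjusted p = 0.032). The difference from Old ND was -1.59 in the first run alone (adjusted p = 0.018) and -0.01 in the second. Old ND and Young ND had nearly the same mean (difference 0.03, interval -0.65 to 0.71). Old CR-ND was 0.75 above Old CR (adjusted p = 0.427).

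Igfbp5 and Igfbp6 passed in none of the 6 comparisons. IGFBP5 binds matrix as well as IGFs, and IGFBP6 prefers IGF2. Igfbp5 was at 10.89, 10.74, 10.70, 10.21 and 10.39 in Young ND and at 10.32, 10.55, 10.18, 10.53 and 10.46 in Old ND. It was at 10.78, 10.74, 10.34, 10.63 and 10.59 under restriction, and at 10.89, 10.92, 10.61, 10.60 and 10.91 in Old CR-ND. The Old CR-ND mice all lay above the Old ND mice, and the difference was 0.38 ± 0.12 (interval 0.13 to 0.63), which did not pass in limma (adjusted p = 0.75) in a comparison where 0.00585% of genes did. The other 5 differences of Igfbp5 lay between -0.18 and 0.21.

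Igfbp6 means were 10.27 ± 0.48 in Young ND, 9.98 ± 0.36 in Old ND, 9.83 ± 0.21 in Old CR and 10.26 ± 0.30 in Old CR-ND, and all the groups overlapped. Its widest difference, -0.44 in Old CR against Young ND (-0.86 to -0.02, limma adjusted p = 0.18), passed only without Young ND replicate 1 (-0.60, adjusted p = 0.0449). Igfbp6 was also the only measured member that differed between the runs of array numbers, by 0.51 higher in the second (adjusted p = 0.00201).

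Igf1, the ligand, was lowest under restriction. Its log2 levels were 10.45, 10.85, 10.52, 10.97 and 11.19 in Young ND, and 10.99, 10.75, 10.87, 10.59 and 10.42 in Old ND. Old CR gave 10.25, 10.30, 10.16, 10.40 and 10.08, each below every Young ND and Old ND mouse, although the gap to the nearest Old ND mouse was small. Old CR-ND gave 10.82, 10.84, 10.65, 10.48 and 10.34, overlapping both old groups.

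Igf1 fell by 0.56 ± 0.14 in Old CR against Young ND (1.47-fold, limma adjusted p = 0.00789). Against Old ND the difference was -0.49 ± 0.14 (interval -0.77 to -0.20), just outside the threshold on this probe set (adjusted p = 0.062). That fit holds no term for the run. When limma blocked on the run, the Igf1 difference from Old ND was -0.51 and was called (adjusted p = 0.0358). Over the 22 alternatives computed for this difference, 7 gained a call and 15 left it uncalled. The 4 Igf1 probe sets share a target and are not replicates. All 4 were lower in Old CR than in Old ND and 3 were called, where 2.13% of all probe sets were. The called ones were at -0.68 (adjusted p = 0.028), -0.75 (adjusted p = 0.0441) and -1.01 (adjusted p = 0.0163). The brightest, which stands for Igf1 by the rule, gave the smallest difference. Against Young ND all 4 were called, at -1.14 to -0.56, where 12.2% of all probe sets were. The mean of the 4 probe sets differed between Old CR and Old ND by -0.73 (adjusted p = 0.0161).

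Age on the normal diet gave no call for Igf1 (-0.07, -0.35 to 0.21, limma adjusted p = 0.822), and here the runs differ: Old ND against Young ND was 0.26 in the arrays of the first (adjusted p = 0.189) and -0.58 in those of the second (adjusted p = 0.0326). For Old CR against Young ND the Igf1 difference was -0.33 in the first (adjusted p = 0.0677) and passed in the second (-1.0, adjusted p = 0.00886). For Old CR against Old ND it passed in the first (-0.59, adjusted p = 0.00762), and the second gave -0.43 (adjusted p = 0.997). The second-run values of these Old CR comparisons rest on 1 Old CR array, assumed to vary like the other groups. Old CR-ND was 0.39 above Old CR (0.11 to 0.67, adjusted p = 0.284).

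Igf2, the other IGF ligand, is not among the 9 genes and was higher in all 3 old groups. Its log2 level was 7.66 to 8.64 in Young ND, 9.69 to 10.28 in Old ND, 9.58 to 10.33 in Old CR and 9.11 to 9.53 in Old CR-ND, so that no old mouse overlapped a young one. Against Young ND, Igf2 rose by 1.85 ± 0.17 in Old ND mice (limma adjusted p = 4.09e-07), by 1.84 ± 0.17 in Old CR mice (adjusted p = 5.92e-07) and by 1.25 ± 0.17 in Old CR-ND mice (adjusted p = 9.49e-05). These comparisons share the young mice. Old CR and Old ND differed by 0.00 ± 0.17 (adjusted p = 0.996).

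**Figure D3:**
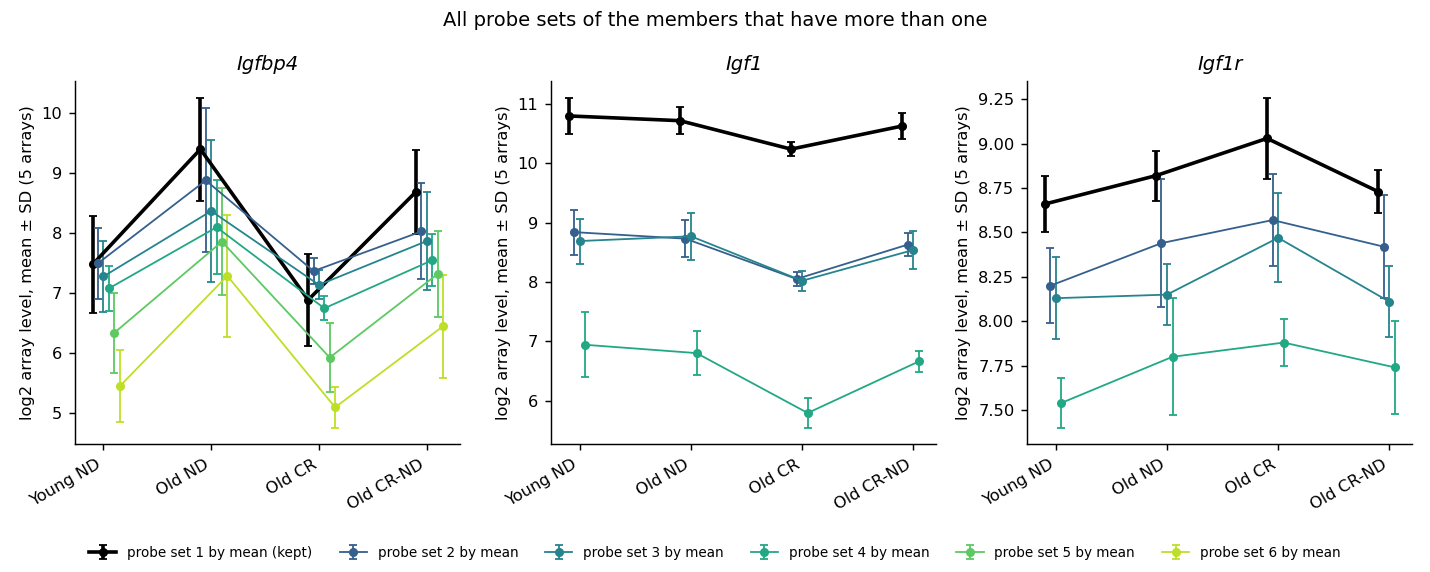
Mean ± SD (n = 5) of the log2 level of every probe set of Igfbp4 (6), Igf1 (4) and Igf1r (4) in each group. All 6 Igfbp4 probe sets are lowest in Old CR, all 4 Igf1 probe sets are lowest in Old CR, and all 4 Igf1r probe sets are highest there.

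Igf1r, which encodes the signalling receptor, differed least in size among the members with a call. Its log2 levels were 8.85, 8.71, 8.71, 8.63 and 8.41 in Young ND, and 8.93, 8.62, 8.89, 8.93 and 8.73 in Old ND. Restricted mice gave 8.98, 9.16, 9.24, 9.10 and 8.66. The values were 8.81, 8.66, 8.86, 8.75 and 8.57 in Old CR-ND. Old CR replicates 1 to 4 lay above every other mouse of the study and replicate 5, its array of the second run, lay among them. Igf1r rose by 0.37 ± 0.10 in Old CR against Young ND (1.29-fold, limma adjusted p = 0.0205); the differences from Old ND, 0.21 (-0.01 to 0.42, adjusted p = 0.361), and of Old CR-ND from Old CR, -0.30 (-0.51 to -0.08, adjusted p = 0.273), did not pass. The Igf1r call ended when Old CR replicate 2, 3 or 4, or Young ND replicate 5, was left out (adjusted p 0.0525 to 0.0687). The call was also lost with only the 2 groups compared (adjusted p = 0.0525). On the probe set with the largest interquartile range the difference was 0.36 and did not pass (adjusted p = 0.183). The second run, with its 1 Old CR array, gave 0.14. All 4 Igf1r probe sets were 0.34 to 0.37 higher in Old CR than in Young ND, and 1 of them was called, where 12.2% of all probe sets were.

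The members' calls by comparison read as follows against the share of all genes called. In Old ND against Young ND 1 of the 7 measured members was called, Igfbp4, where 10.9% of genes were, and the median member difference was -0.07. For Old CR against Old ND 2 of 7 were called, Igfbp3 up and Igfbp4 down, where 2.39% of genes were, with a median of -0.15; in 3 of 7, with Igf1, the groups did not overlap, where that held for 3.23% of genes. The return to the normal diet, Old CR-ND against Old CR, gave 1 call of 7, Igfbp3, where 0.333% were. There 6 of the 7 had an unadjusted limma p under 0.05, against 9.79% of all genes. Restricted old against young mice gave 4 calls of 7, Igfbp3 and Igf1r up and Igfbp2 and Igf1 down, where 12.7% were. The median difference over all genes lay between -0.006 and 0.004 in every comparison.

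No member was called by limma in Old CR-ND against Old ND, where 0.00585% of genes were; 1 of the 7 had an unadjusted p under 0.05, against 5.08% of all genes. No member was called in Old CR-ND against Young ND, where 7.04% of genes were; again 1 of the 7 had an unadjusted p under 0.05, against 19.2% of all genes. The binding protein genes differed in direction. Under current restriction Igfbp3 rose, Igfbp4 fell, Igfbp2 was lower with a call against Young ND only, and Igfbp5 and Igfbp6 had no call.

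**Figure D4:**
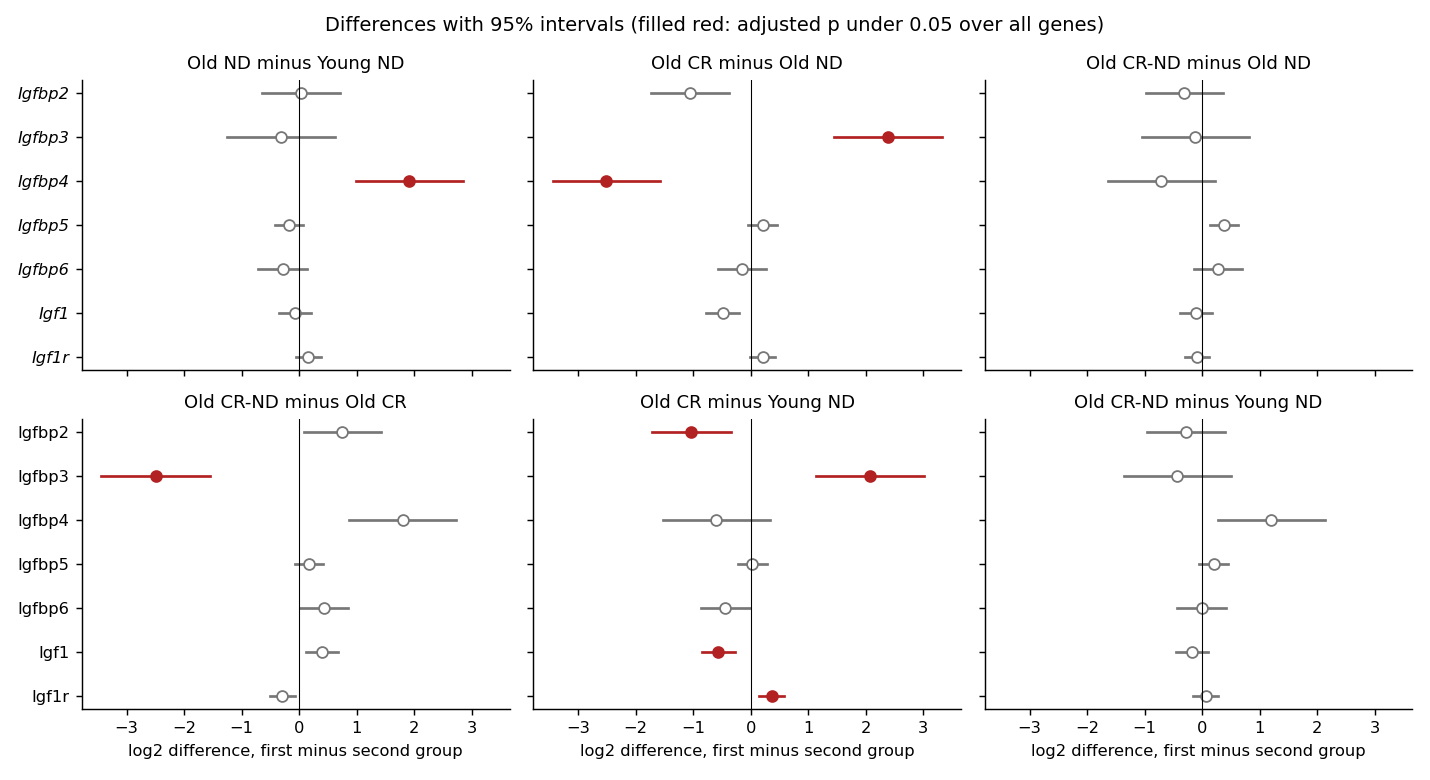
Difference of group means (log2) of the 7 measured genes in each of the 6 comparisons, with 95% intervals from the limma fit; filled red points have an adjusted p under 0.05. Igfbp3 and Igfbp4 lie on opposite sides of 0 in Old CR against Old ND, at 2.38 and -2.51, and the intervals of Igfbp5, Igfbp6, Igf1 and Igf1r are the narrowest.

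A further 40 genes of the axis were measured, from lists of ligands and carriers, receptors and adaptors, proteases and their inhibitors, growth hormone input and the PI3K and AKT relay. Under restriction, Old CR against Old ND, 2 of the 40 rose and 0 fell, 5% against 2.39% of all genes. Grb14, an adaptor that inhibits insulin receptor signalling, rose by 0.78 ± 0.14 (limma adjusted p = 0.00517) from a level of 4.56 to 5.34; its call ended with only the 2 groups compared (adjusted p = 0.0612) and within the second run (0.37, adjusted p = 0.997), where Old CR has 1 array. Stat5b, a transcription factor that carries the growth hormone signal to Igf1, rose by 0.61 ± 0.15 (adjusted p = 0.0296), and its adjusted p was 0.067 to 0.0886 when any of 5 arrays was left out, namely replicates 1, 2 and 3 of Old ND and 2 and 3 of Old CR. The Stat5b call also ended with the mean of its probe sets (adjusted p = 0.1), with only the 2 groups compared (adjusted p = 0.063) and within the second run (0.24, adjusted p = 0.997). None of the 10 measured genes of the PI3K and AKT relay passed, and 0 of them had an unadjusted p under 0.05, against 14.5% of all genes. Of the 9 proteases and inhibitors none passed in limma, although 2 had an unadjusted p under 0.05, and Pappa, which encodes the protease that cuts IGFBP4, was at -0.29 (adjusted p = 0.438).

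With age on the normal diet 4 of the 40 rose and 5 fell, 22.5% against 10.9% of all genes. Beside Igf2, C1s1, a complement serine protease gene, rose by 1.03 ± 0.08 (limma adjusted p = 2.82e-08), and Gab1, an adaptor, by 0.39 ± 0.08 (adjusted p = 0.00156). Stat5b fell by 0.99 ± 0.15 (adjusted p = 9.84e-05) and Grb10, an adaptor that restrains the insulin and IGF1 receptors, by 0.53 ± 0.10 (adjusted p = 0.00151). On the probe set with the largest interquartile range neither adaptor passed, Gab1 at 0.24 (adjusted p = 0.242) and Grb10 at -0.37 (adjusted p = 0.258), and Gab1 did not pass within either run (adjusted p = 0.0561 and 0.0807). Adam12, a metalloprotease that can cut IGFBP3 and IGFBP5, fell by 0.95 ± 0.26 (adjusted p = 0.0226); its adjusted p was 0.0501 to 0.0641 when Young ND replicate 1, 2 or 5, or replicate 4 or 5 of Old ND, was left out.

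Against Young ND, 6 of the 40 rose in Old CR mice and 5 fell, 27.5% against 12.7% of all genes. Insr, the insulin receptor gene, rose by 0.74 ± 0.17 (limma adjusted p = 0.00443), beside the rise of Igf1r, and Adam12 fell by 1.70 ± 0.26 (adjusted p = 0.000167). After the return to the normal diet 1 of the 40 rose and 0 fell against Old CR, 2.5% against 0.333% of all genes. It was Htra1, which encodes a secreted protease that cuts IGFBP5, at 0.43 ± 0.09 (adjusted p = 0.0273). Leaving out any of 6 arrays (replicates 1, 2 and 3 of Old CR, and 2, 4 and 5 of Old CR-ND) ended that call, and the adjusted p was then 0.0603 to 0.104. The Htra1 call was also lost within the first run (0.44, adjusted p = 0.125). The second run, with its 1 Old CR array, gave 0.39. Between Old CR-ND and Young ND 3 rose and 3 fell, 15% against 7.04% of all genes, and in Old CR-ND against Old ND none passed in limma, with 5 of the 40 at an unadjusted p under 0.05, against 5.08% of all genes.

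**Figure D5:**
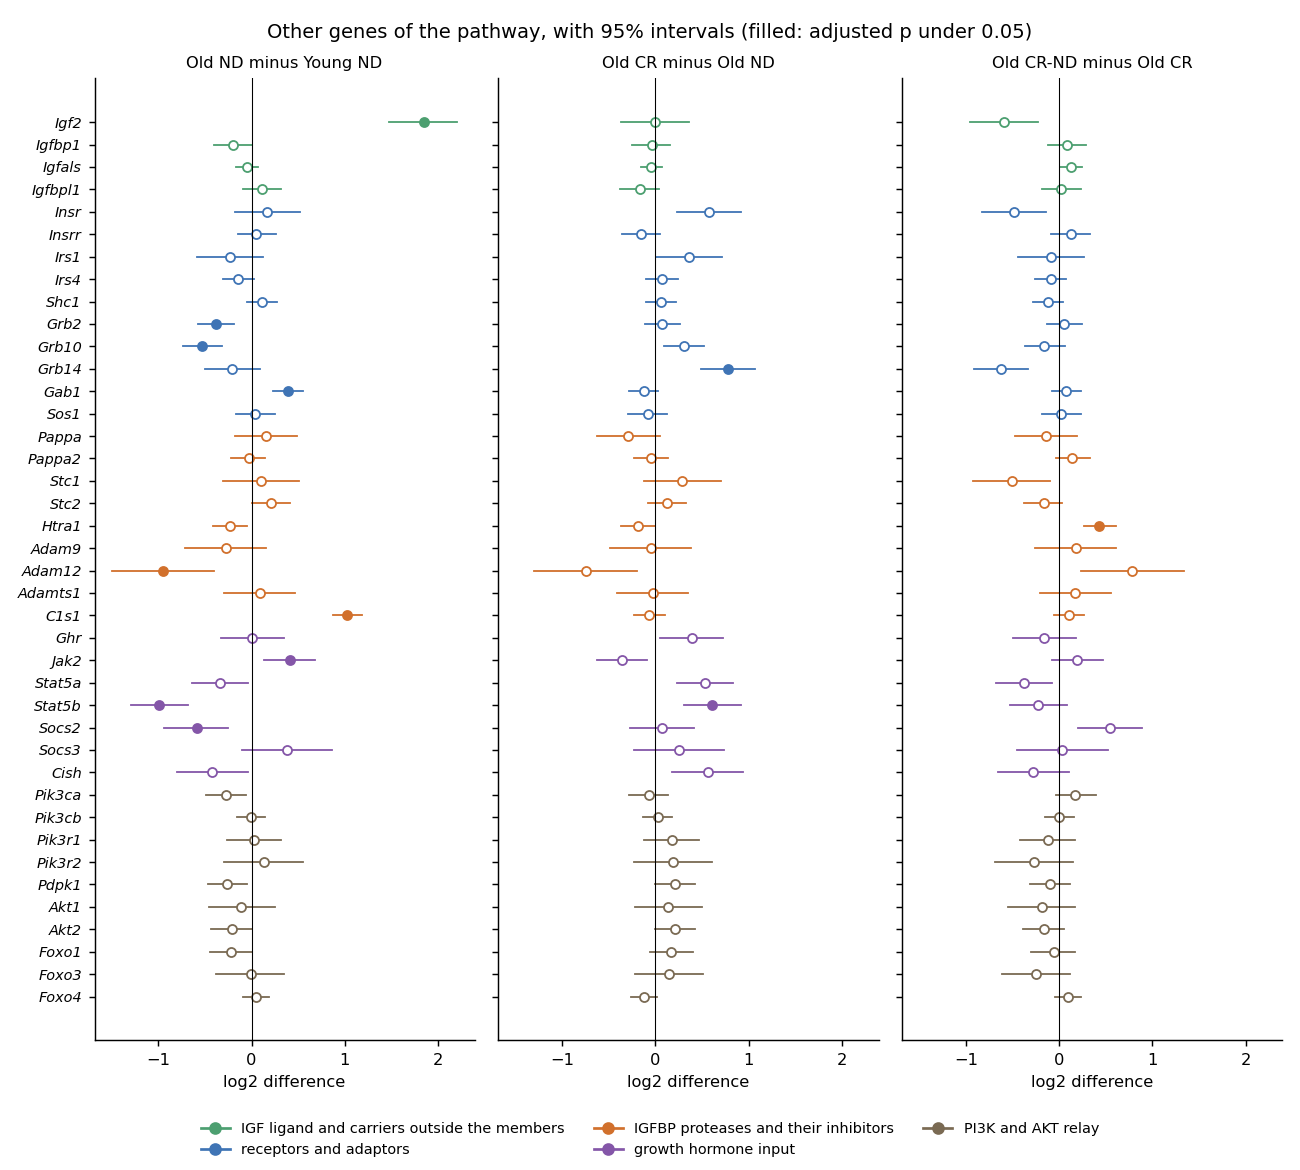
Difference of group means (log2) with 95% intervals for the 40 further genes of the axis, in Old ND against Young ND, Old CR against Old ND and Old CR-ND against Old CR; filled points have an adjusted p under 0.05. Igf2 stands out in the age comparison at 1.85 and lies at 0.00 in Old CR against Old ND, where Grb14 and Stat5b are the called genes.

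The genes whose levels followed each called member most closely were found by Pearson correlation over the 20 arrays, among 8906 genes whose highest group mean was above the median gene level. Such values describe these arrays, which share groups and runs. For Igfbp4 they were Notch1 (r = 0.945, and 0.867 with group means subtracted), Olfml2a (0.906 and 0.803) and Nrp1 (0.904 and 0.733). Here much of the likeness remained among mice of a group, but the genes were picked on these same arrays. For Igfbp3 they were Tgm1 (0.842 and 0.72), Gm14066 (0.821 and 0.584) and Nipal2 (0.813 and 0.421), where more of the likeness lay between groups. For Igfbp2 they were Fxyd5 (0.894 and 0.832), Ackr4 (0.847 and 0.763) and Fscn1 (0.828 and 0.706). For Igf1 they were Cmklr1 (0.812 and 0.559), Crispld2 (0.811 and 0.657) and Tmem132a (0.775 and 0.652), and for Igf1r 1110032A03Rik (0.882 and 0.794), 1810010H24Rik (0.869 and 0.854) and Ccndbp1 (0.86 and 0.756). Among the members themselves, with group means subtracted, the pairs farthest from 0 were Igfbp2 with Igfbp6 (-0.70), Igfbp2 with Igfbp4 (0.53) and Igfbp6 with Igf1r (-0.52). Igfbp6 differs between the runs, and the part of the runs in these pairs was not tested.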

How the data were processed

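RNA of sorted dermal fibroblasts was measured on 20 Affymetrix mouse arrays. The deposited values are log2 intensities; the submitters' processing notes name RMA and affy, with versions not given in the sources used here. Of 45141 probe sets, 28898 name 1 gene in the platform annotation used, 551 several and 15692 none; 28689 matched RefSeq (GRCm38.p6) by Entrez number. The brightest probe set by mean stood for a gene. Groups were compared with limma 3.58.1 in R 4.3.3 (lmFit and eBayes, 1 mean per group, 16 residual and 4.19 prior degrees of freedom), two-sided, adjusted over 17097 genes, threshold 0.05. The fit was tested on simulated data, drawn for each gene on its own and with no difference between runs. That test therefore cannot speak to the runs of these arrays. Amplification and RMA can compress differences, and the number of arrays limits precision. No pair of arrays held identical values.

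Named genes were the members, pathway genes that passed (at most 4 per list, or up to 2 where none passed), and the 3 genes most like each called member. Members, lists and tests were chosen with earlier results of these data known. Alternatives were the filter on dim genes, the choice of probe set, another normalization or centring, the eBayes options, array weights, only the groups compared, the run, the threshold and each array left out.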

Additional observations from a re-analysis of the deposited data

How the results depend on the processing

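Over the 6 comparisons of the 7 measured members, 42 results were recomputed under 22 alternatives each. Of 924 values, 886 stayed on the same side of the threshold, 25 lost and 13 gained a call, and 0 reversed. A value counted as reversed only if its sign changed and it was called in either fit. Uncalled differences did change sign. Igfbp6 in Old CR-ND against Young ND ranged from -0.34 to 0.21, and Igfbp3 in Old CR-ND against Old ND from -0.95 to 0.44. The number of members called in Old ND against Young ND was 1, and 2 within the second run. In Old CR against Old ND it was 2, but 4 with the run as a block, 4 within the first run, 0 within the second run and 4 at a threshold of 0.1. Between Old CR-ND and Old CR it was 1, but 2 with array weights, 0 within the first run, 0 at a threshold of 0.01 and 2 at 0.1. Between Old CR and Young ND it was 4, but 2 with only the groups compared, 2 within the second run and 2 at a threshold of 0.01. Between Old CR-ND and Young ND it was 0, and 1 within the second run (Igf1, -0.67, adjusted p = 0.0225). With each array left out in turn the counts ranged from 1 to 1, 2 to 3, 0 to 1, 2 to 4 and 0 to 0 in these comparisons, and from 0 to 0 in Old CR-ND against Old ND. The cause of these changes was not tested; within the second run Old CR has 1 array, assumed to vary like the other groups. No paired analysis was possible because the labels give no replicate numbers, and those used here follow the order of the samples.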
